A study of Mus musculus with 4 samples.

Results

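Erythroid cells were examined in mononuclear cell preparations of mouse liver. They were chosen by their own globin RNA, as the cells in which Hba-a1, Hba-a2, Hbb-bs and Hbb-bt together made up at least 5% of the UMIs (unique molecular identifiers, which count each captured RNA molecule once). This chose 174 of 9300 cells. All mice were of the C57BL/6 strain and 8 to 10 weeks old. Naïve mice had received no ConA. The ConA+Veh mice had received ConA (concanavalin A, a plant lectin that activates T cells and causes hepatitis) by vein, followed by the corn oil vehicle. ConA+TCDD mice had received ConA followed by TCDD, a dioxin that activates the AhR (aryl hydrocarbon receptor), and ConA+FICZ mice had received ConA and FICZ, an AhR ligand derived from tryptophan, for which dose and timing were not given in the sources used here. Per the study's methods, livers were taken 24 hours after ConA, dissociated with enzymes, enriched on a Percoll gradient and treated to lyse red cells. Each group had 1 droplet library of the 5′ assay, and the number of mice behind a library was not given in the sources used here. With 1 library per group no test between groups was possible. All intervals are exact 95% intervals that cover counting error only, and differences between mice or preparations cannot be told apart from differences between treatments.

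Red cells arise from progenitors in bone marrow and, in the mouse, in spleen, and liver is a site of their formation in the fetus and under stress. As erythroblasts mature they fill with globin and heme, lose their other RNA, stop dividing and expel the nucleus, which leaves the reticulocyte, a cell that still holds RNA. Hemoglobin joins alpha and beta globin chains with heme, whose first step in erythroid cells is run by Alas2, and late cells degrade their organelles through the ubiquitin and autophagy systems.

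Where 4 values are given together, they stand for Naïve, ConA+Veh, ConA+TCDD, then ConA+FICZ. The libraries summed to 5952445, 19252211, 12077209 and 16017797 UMIs, with medians of 2161, 3984, 3761.5 and 3147 UMIs per cell. Erythroid cells were 21 of 2086 cells in Naïve (1.01%, interval 0.624 to 1.53%), 65 of 2779 in ConA+Veh (2.34%, 1.81 to 2.97%), 82 of 1880 in ConA+TCDD (4.36%, 3.48 to 5.39%) and 6 of 2555 in ConA+FICZ (0.235%, 0.0862 to 0.510%). The share was highest in ConA+TCDD and lowest in ConA+FICZ. On the log2 scale the share in ConA+Veh was 1.22 above Naïve (0.49 to 2.001), ConA+TCDD was 0.90 above ConA+Veh (0.41 to 1.39) and ConA+FICZ stood at -3.32 against ConA+Veh (-4.81 to -2.12), and all 3 comparisons share the ConA+Veh library. Lysis of red cells and the Percoll gradient act on these shares, and their part was not tested. The globin threshold also acts on them. At 2% globin the 4 libraries had 21, 66, 84 and 6 such cells, and at 50% they had 20, 47, 59 and 4. When cells under 200 genes or over 10% mitochondrial UMIs were left out, the log2 difference was 5.20 for ConA+Veh over Naïve and 0.18 for ConA+TCDD over ConA+Veh. Erythroid cells were then 1 of 1936 cells in Naïve (0.0517%, 0.00131 to 0.287%) and 2 of 2339 in ConA+FICZ (0.0855%, 0.0104 to 0.309%). These intervals overlap, so which library was lowest cannot be said. The 1 Naïve cell left, with 1225 genes, held T cell RNA as described below, and the 5.20 rests on it.

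Globin filled most of the chosen cells. Its median share of a cell's UMIs was 89.8% in Naïve (range 43.5 to 94.8%), 57.6% in ConA+Veh (9.42 to 78.1%), 68.4% in ConA+TCDD (5.05 to 84.4%) and 65.6% in ConA+FICZ (14.9 to 73.1%). These values chose the cells and are given as a description. The threshold lay in a wide gap in Naïve and ConA+FICZ, where the highest cells outside it held 0.110 and 0.295% globin. In ConA+Veh the highest cell outside held 2.41%, whereas that of ConA+TCDD held 4.22% and had UMIs of 10 of the 13 erythroid genes other than globin. In the other cells globin was 0.000491, 0.00504, 0.00807 and 0.000768% of UMIs.

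The label was checked on 13 erythroid genes that the choice did not use. Alas2, the first enzyme of heme synthesis in erythroid cells, had a UMI in 21 of 21 cells of Naïve, 65 of 65 of ConA+Veh, 81 of 82 of ConA+TCDD and 6 of 6 of ConA+FICZ. Among lymphocytes, which do not make heme for hemoglobin, 0.0633, 0.536, 0.481 and 0.0732% of cells had an Alas2 UMI, at median depths of 2273, 5313, 5452 and 5293.5 UMIs. At least 3 of the 13 genes were found in 19.0, 46.2, 48.8 and 66.7% of erythroid cells, against 0, 0.111, 0.445 and 0.157% of the other cells. After each cell was thinned to 500 UMIs, these shares of erythroid cells were 4.76, 23.1, 29.3 and 66.7%, and no cell was too shallow to be thinned. Alas2 thus marked nearly all chosen cells, while the rarer erythroid genes were found in some of them.

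Genes detected per cell and globin share went opposite ways within each ConA library. A larger globin share leaves fewer UMIs in which other genes can be found, so this trend is partly built in. The erythroid cells had medians of 68, 227, 187 and 138 genes, against 962, 1459, 1353 and 1167 in the other cells of the same libraries. In ConA+TCDD the median was 657 genes in the 7 cells with 5 to 20% globin, 540.5 in the 16 cells with 20 to 50%, 174 in the 51 cells with 50 to 80% and 117.5 in the 8 cells above 80%. ConA+Veh had 1, 17, 47 and 0 cells in the same ranges and ConA+FICZ 1, 1, 4 and 0. In Naïve 18 of 21 cells were above 80% globin, with a median of 67.5 genes. The groups therefore differed in the mix of globin ranges, and ConA+TCDD and ConA+Veh are also compared within a range. The other pairs had too few cells in a shared range.

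Some cells also held RNA of leukocytes. In Naïve 1 erythroid cell held 21 UMIs of leukocyte genes, among them 8 of Cd3e, 7 of Cd3g and 4 of Trac, all parts of the T cell receptor complex, and this cell gave 38.3% of the non-globin UMIs of the Naïve erythroid cells. In ConA+Veh 1 cell held 380 UMIs of S100a9, 257 of S100a8 and 56 of Retnlg, all neutrophil genes, and gave 7.73% of that library's erythroid non-globin UMIs. In ConA+TCDD 1 cell held 7 leukocyte UMIs, 4 of them Cd3e, and gave 11.1%. No doublet caller was run, and droplets with 2 cells cannot be told apart from cells that picked up free RNA. The main results that rest on the first pair of cells are also given without them. Over all erythroid cells, the T cell list had 33, 29, 21 and 0 UMIs, the neutrophil list 1, 735, 7 and 0, the mononuclear phagocyte list 0, 10, 1 and 0, the hepatocyte list 6, 13, 1 and 8, the megakaryocyte and platelet list 0, 0, 5 and 1, and no endothelial UMI was found.

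The 4 globin genes lie in 2 clusters. Build GRCm38 places Hba-a1 at chr11:32283511-32284465 and Hba-a2 at chr11:32296489-32297298, both on the plus strand, and Hbb-bs at chr7:103826534-103828096 and Hbb-bt at chr7:103812524-103813996, both on the minus strand. Each pair is nearly identical in its coding sequence, which bears on how reads are split between the 2 genes. Counted from 1 at the start codon, the coding sequences of Hba-a1 and Hba-a2 (429 bases each) differ at 1 base, C381T, and those of Hbb-bs and Hbb-bt (444 bases each) at 1 base, C417T. The last 30 bases up to that difference are shown, with the differing base in capitals.
Hba-a1, bases 352 to 381: ttcacccccgcggtgcatgcctctctggaC
Hba-a2, bases 352 to 381: ttcacccccgcggtgcatgcctctctggaT
Hbb-bs, bases 388 to 417: gccttccagaaggtggtggctggagtggcC
Hbb-bt, bases 388 to 417: gccttccagaaggtggtggctggagtggcT

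The balance of alpha to beta globin differed widely between the libraries. Naïve erythroid cells held 7367 UMIs of Hba-a1, 6107 of Hba-a2, 17519 of Hbb-bs and 3467 of Hbb-bt. In ConA+Veh the same genes had 1872, 1576, 34311 and 5000 UMIs, in ConA+TCDD 5128, 4047, 46579 and 7277, and in ConA+FICZ 448, 311, 1754 and 239. Alpha globin was 39.1% of all 4 genes' UMIs in Naïve, 8.06% in ConA+Veh, 14.6% in ConA+TCDD and 27.6% in ConA+FICZ. Beta globin led in each library, and alpha was lowest in ConA+Veh.

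The medians of single cells followed the same order. Cells of 1 library are not replicates of a treatment, and their globin UMIs also chose them, so the ranges below are descriptions. The lowest, median and highest alpha share of a cell were 32.8, 39.7 and 47.5% in Naïve and 3.65, 7.31 and 25.2% in ConA+Veh. They were 6.99, 13.95 and 24.6% for ConA+TCDD and 22.5, 27.8 and 37.3% for ConA+FICZ. No Naïve cell lay within the range of ConA+Veh or of ConA+TCDD, and 6 of 21 lay within that of ConA+FICZ. All 82 ConA+TCDD cells lay within the range of ConA+Veh, whose top value came from 1 cell at 25.2%, with the next at 17.3%. That cell held 9.42% globin and 1 UMI each of the lymphocyte genes Trac, Klre1 and Cd3e, and without it 18 of the 82 ConA+TCDD cells lay above the ConA+Veh range. With it, 37 of 65 ConA+Veh cells lay within the range of ConA+TCDD. Among cells with 50 to 80% globin the medians were 43.2% in Naïve (2 cells), 6.99% in ConA+Veh (47 cells), 13.4% in ConA+TCDD (51 cells) and 25.2% in ConA+FICZ (4 cells). Naïve and ConA+FICZ had few cells there. With 20 to 50% globin the medians were 9.43% in ConA+Veh (17 cells) and 17.6% in ConA+TCDD (16 cells), and with 5 to 20% they were 25.2% in ConA+Veh (1 cell) and 15.9% in ConA+TCDD (7 cells). The median cell held 522 alpha UMIs in Naïve, 50 in ConA+Veh, 120 in ConA+TCDD and 117.5 in ConA+FICZ, whereas its beta UMIs numbered 878, 644, 672 and 341.

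**Figure D1:**
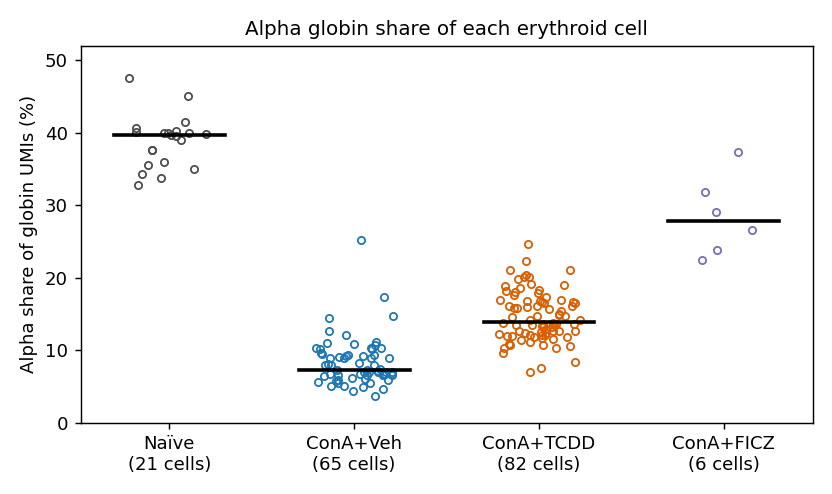
Each circle is 1 erythroid cell and the y axis gives the share (%) of its globin UMIs that came from Hba-a1 and Hba-a2, by library, with the median as a black line. The Naïve cells, with a median of 39.7%, lie apart from ConA+Veh and ConA+TCDD. Of the 6 ConA+FICZ cells 1 lies within the Naïve range. Within that of ConA+Veh lie 2, only through its 1 cell at 25.2%, as the next ConA+Veh cell is at 17.3%.

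The globin UMIs found in the other cells of each library had an alpha share of 44.8% in Naïve (29 UMIs), 8.90% in ConA+Veh (966 UMIs), 18.1% in ConA+TCDD (965 UMIs) and 18.7% in ConA+FICZ (123 UMIs). Single cells held many of these UMIs, with 442 in 1 ConA+Veh cell, 235 in 1 ConA+TCDD cell and 107 in 1 ConA+FICZ cell, and some of the ConA+TCDD cells had erythroid genes. In cells with 1 or 2 globin UMIs the alpha share was 42.3% in Naïve (26 UMIs, interval 23.4 to 63.1%), 12.6% in ConA+Veh (406 UMIs, 9.50 to 16.2%), and 22.9% in ConA+TCDD (537 UMIs, 19.4 to 26.7%), and in ConA+FICZ it was 2 of 10 UMIs (2.52 to 55.6%). Within the alpha pair Hba-a1 gave 54.7, 54.3, 55.9 and 59.0% of UMIs, nearly the same in each library. Within the beta pair Hbb-bt gave a median of 16.9, 12.3, 13.0 and 12.6% of a cell's UMIs. Cell Ranger counts only reads that it can place in 1 gene, so reads from the stretches that the paired genes share can be lost, and the alpha share is a share of counted UMIs. The part of this loss in the difference between libraries was not tested. The embryonic globins Hbb-bh1, Hbb-bh2, Hbb-y and Hba-x had no UMI in any erythroid cell, and the theta globin Hbq1b had 2, 38, 61 and 5.

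The non-globin genes were scaled per 1000000 non-globin UMIs of the erythroid cells of a library (CPM), because globin chose the cells. These totals were 6717 in Naïve, 38260 in ConA+Veh, 60283 in ConA+TCDD and 2837 in ConA+FICZ, so 3 UMIs correspond to 447, 78.4, 49.8 and 1057 CPM. A gene was counted in a comparison when it had at least 50 UMIs in the pair of libraries together, and a fold of 2 was the size reported. A gene can reach this minimum through the group where it is high, and the libraries differ in depth, so counts over the counted genes are descriptions. Against the other cells of their own libraries, 115 of 305 genes were at least 2-fold higher (37.7%) and 62 at least 2-fold lower (20.3%) in each of the 3 libraries with 20 or more erythroid cells. Of the 62 lower genes 54 encode ribosomal proteins, whose genes took 10.7, 10.8, 13.7 and 5.99% of non-globin UMIs in erythroid cells against 29.2, 30.8, 33.5 and 31.0% in other cells. Without the leukocyte-bearing pair the share was 4.25% in Naïve and 11.5% in ConA+Veh. No ConA+TCDD cell was left out for this. Its cell with 7 leukocyte UMIs held 2411 of the 8230 ribosomal protein UMIs, so the 13.7% also depends on 1 cell.

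The lists of heme synthesis, iron handling, membrane, late maturation and red cell metabolism together held 29 of the 115 higher genes. Genes were counted by their UMIs in erythroid cells, so nothing is read from these counts: 13 of 13 of the late maturation list (ubiquitin and autophagy genes of late erythroid cells) were higher in those 3 libraries, as were 9 of 10 of the red cell metabolism and antioxidant list, 3 of 4 of heme synthesis, 3 of 4 of iron handling and 3 of 6 of membrane and skeleton. Gpx1, a peroxidase, was at 22331 CPM in Naïve, 57005 in ConA+Veh, 38734 in ConA+TCDD and 60627 in ConA+FICZ, where other cells had 667, 1030, 747 and 918. Bpgm, which makes the small molecule that lowers the oxygen affinity of hemoglobin, was at 12357, 13905, 7382 and 9517 CPM against 8.97, 9.29, 9.96 and 8.12 in other cells. Gm42418, a locus that overlaps ribosomal RNA sequence, was the most abundant non-globin gene of the Naïve erythroid cells, at 202174 CPM, against 47622, 32115 and 45823 after ConA.

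**Figure D2:**
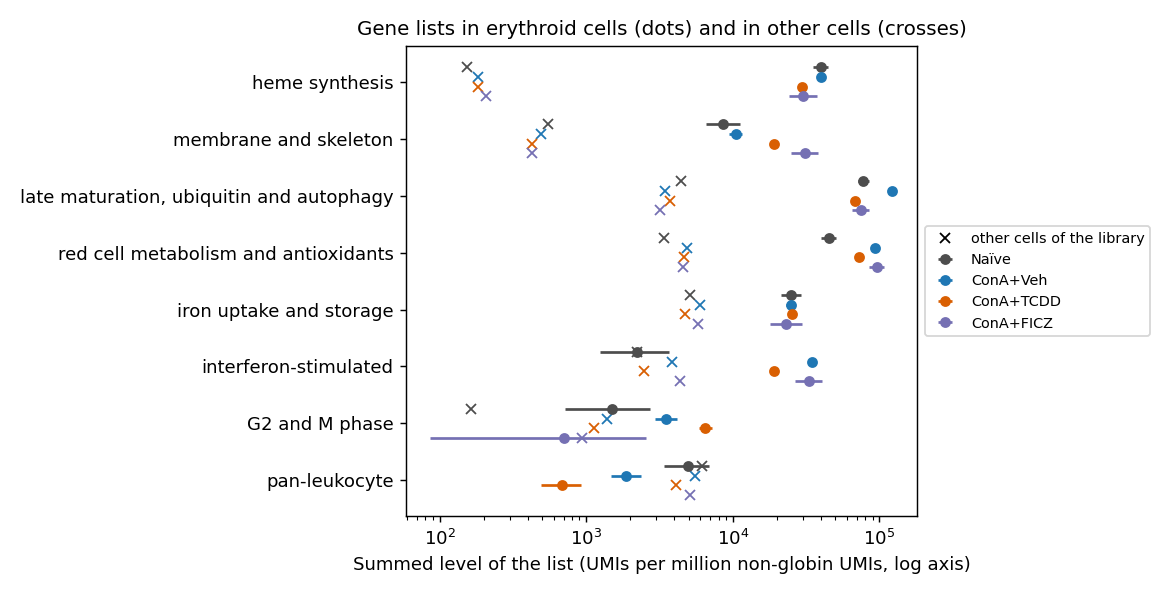
For each gene list the dots give the summed level in erythroid cells of each library, with the exact 95% Poisson interval as a bar, and the crosses that of the other cells of the same library, on a log axis of UMIs per 1000000 non-globin UMIs. Heme, membrane, late maturation and red cell metabolism lie far above the other cells in each library, the interferon list does so in the ConA libraries, and the pan-leukocyte list of ConA+FICZ erythroid cells was at 0 and is not drawn.

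Heme synthesis was led by Alas2 in each library. Alas2, on chrX:150547375-150570638 (GRCm38, plus strand), had 237, 1297, 1348 and 54 UMIs, which is 35284, 33900, 22361 and 19034 CPM. Without the leukocyte-bearing pair Alas2 was at 54752 CPM in Naïve and 35720 in ConA+Veh. Fech, which inserts iron into the ring in the last step, had 29, 161, 117 and 4 UMIs. Other enzymes were rarer: Urod had 1, 26, 48 and 4 UMIs, Cpox 0, 4, 34 and 2, Alad 1, 2, 24 and 1, Ppox 0, 5, 14 and 3, and Uros 0, 2, 13 and 0. Alas2 and Fech were thus found across the groups. The libraries differ in depth, with 38260 non-globin UMIs in ConA+Veh and 60283 in ConA+TCDD. Cpox, Alad, Ppox and Uros had few UMIs, and these differed between ConA+Veh and ConA+TCDD by more than the depth did. Urod stood at 680 CPM in ConA+Veh, 796 in ConA+TCDD and 1410 in ConA+FICZ.

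Among genes of iron handling, the ferritin light chain Ftl1 had 105, 480, 727 and 19 UMIs and the heavy chain Fth1 31, 324, 522 and 22. Tfrc, the transferrin receptor through which erythroblasts take up iron, had 0, 1, 16 and 2 UMIs. Slc25a37 (mitoferrin, the mitochondrial iron importer) had 21, 45, 86 and 5. The list as a whole stood at 25011, 24830, 25214 and 23264 CPM. This rested on the T cell-bearing Naïve cell: with it and the neutrophil-bearing cell left out, Naïve stood at 38350 CPM and ConA+Veh at 24078, a log2 ratio of -0.67 (-0.92 to -0.42).

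Membrane and skeleton genes were highest in ConA+FICZ, at 8635 CPM (interval 6557 to 11163) in Naïve, 10455 (9455 to 11531) in ConA+Veh, 19243 (18151 to 20383) in ConA+TCDD and 31019 (24878 to 38216) in ConA+FICZ. Without the leukocyte-bearing pair Naïve stood at 11577 CPM and ConA+Veh at 11133, so the order of these libraries depended on those cells. Slc4a1 (band 3, the anion exchanger) had 7, 51, 185 and 16 UMIs. Epb41 (protein 4.1, which ties the membrane to its skeleton) had 30, 148, 126 and 14, and Tmcc2, a transmembrane protein gene, had 0, 32, 156 and 24. The rarer markers Rhag, Epb42, Ermap and Cldn13 had 39, 24, 31 and 28 UMIs in ConA+TCDD and at most 13 in any other library. Tspo2 had 0, 32, 75 and 3 UMIs and Trim10 5, 32, 37 and 3.

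The list of erythroid transcription factors was low, at 1340 CPM in Naïve, 1359 in ConA+Veh, 2853 in ConA+TCDD and 3525 in ConA+FICZ, with 338 to 611 in other cells. It was higher in ConA+TCDD than in ConA+Veh by a log2 ratio of 1.07 (0.61 to 1.55). Within cells of 20 to 50% globin this ratio was 1.13 (0.55 to 1.75), and within 50 to 80% it was -0.06 (-1.08 to 0.95). The few UMIs of ConA+FICZ gave 1.37 (0.23 to 2.37) over ConA+Veh. Gata1 had 0, 0, 7 and 0 UMIs, Klf1 0, 1, 5 and 0, and Hemgn, a nuclear erythroid protein, 0, 0, 37 and 2. E2f2, which acts in the last divisions, was the leading gene of that list with 5, 13, 56 and 5 UMIs (log2 ratio of ConA+TCDD over ConA+Veh 1.45, 0.56 to 2.45). Nfe2 had 0, 8, 25 and 3, Lmo2 1, 9, 22 and 1, and Klf3 1, 6, 25 and 0. The progenitor genes Kit, Cd34, Gata2 and Car1 had no UMI in any erythroid cell, and Epor, the erythropoietin receptor, had 3, all in ConA+TCDD. Of that pathway Bcl2l1 had 4, 29, 39 and 3 UMIs and Pim1 1, 18, 47 and 2.

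Most known targets of AhR were not seen. Cyp1a1, Cyp1a2, Cyp1b1, Ahrr, Tiparp, Aldh3a1 and Ugt1a6a had no UMI in any erythroid cell, which allows at most 447 CPM in Naïve, 78.4 in ConA+Veh, 49.8 in ConA+TCDD and 1057 in ConA+FICZ. Without the T cell-bearing cell the limit in Naïve is 724 CPM. Ahr itself had 1 UMI, in ConA+TCDD, and Arnt, its partner, and Nqo1 had 1 each, in ConA+Veh. No level of the genes at 0 above these limits was seen.

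ConA+Veh against Naïve showed higher interferon-stimulated genes. Of 142 genes counted, 36 were at least 2-fold higher in ConA+Veh (25.4%) and 10 at least 2-fold lower (7.04%), with a median log2 ratio of 0.32. Without the leukocyte-bearing pair 53 of 129 were higher (41.1%) and 9 lower, with a median of 0.79. Scaled to all UMIs, globin included, 122 were higher, 0 lower and the median was 1.85, and scaled to the median gene ratio 27 were higher and 16 lower. With no minimum of UMIs 91 were higher and 114 lower, so the balance depended on the minimum. Higher genes were thus 78.3% of those past the fold, 100% or 62.8% by scaling, and levels here are relative to non-globin RNA. Of the 20 interferon-stimulated genes measured 2 were counted, Isg15 and Irf7, and they reached the minimum through ConA+Veh. The list summed to 2233 CPM (1250 to 3683) in Naïve and 35024 (33173 to 36950) in ConA+Veh, a log2 ratio of 3.97, where the other cells of the libraries went from 2207 to 3838 CPM. Without the T cell-bearing Naïve cell and the neutrophil-bearing ConA+Veh cell this ratio was 4.35 (3.30 to 5.67).

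Isg15, a ubiquitin-like protein that interferon induces, made most of this. It had 5 UMIs in Naïve, 1144 in ConA+Veh, 808 in ConA+TCDD and 61 in ConA+FICZ, from 3 of 21, 44 of 65, 32 of 82 and 5 of 6 cells. On the CPM scale these were 744, 29901, 13403 and 21502, where the other cells of the same libraries had 137, 471, 243 and 602. The log2 ratio of ConA+Veh over Naïve was 5.33 (4.10 to 6.95). Of the Isg15 UMIs the T cell-bearing Naïve cell held 0 and the neutrophil-bearing ConA+Veh cell 87. Without this pair the ratio was smaller, as the Naïve non-globin total fell from 6717 to 4146. Per 1000 non-globin UMIs of a cell the median was 0 in Naïve, 8.89 in ConA+Veh, 0 in ConA+TCDD and 8.44 in ConA+FICZ, and the highest was 11.03, 174, 139 and 45.4, so the groups overlapped at 0 and single cells carried much of the sum. Irf7, a transcription factor that amplifies interferon signals, had 2, 91, 46 and 6 UMIs (log2 ratio of ConA+Veh over Naïve 2.998, 1.10 to 6.07). Ifit1 had 0, 19, 62 and 8, and Bst2 0, 14, 18 and 1. Ifitm3, named as one of the largest differences, had 0 UMIs in Naïve and 113 in ConA+Veh, a log2 ratio of at least 2.73 with 3 UMIs as the floor. Without the T cell-bearing Naïve cell this floor is 724 CPM rather than 447, so the bound is lower.

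In ConA+Veh and ConA+TCDD Isg15 was found in a larger share of the cells below 50% globin. In ConA+Veh it was found in 0 of 1 cell with 5 to 20% globin, 16 of 17 with 20 to 50% and 28 of 47 with 50 to 80%. In ConA+TCDD it was in 6 of 7 cells with 5 to 20%, 15 of 16 with 20 to 50%, 11 of 51 with 50 to 80% and 0 of 8 above 80%. In Naïve 0 of 1 cell with 20 to 50% and 3 of 18 cells above 80% held it. By level rather than by cells, Isg15 was highest in the middle range of ConA+TCDD, at 7594, 20020, 11520 and 0 CPM from the lowest globin range to the highest. The interferon list was at 56090 CPM in ConA+Veh cells with 20 to 50% globin and 20772 with 50 to 80%, and at 12618, 29448, 13738 and 690 CPM over the 4 ranges of ConA+TCDD. Naïve had 2 cells from 50 to 80% and 1 below 50%, too few to compare with the ConA libraries at like globin share, so the globin mix and ConA cannot be told apart in that comparison. Cells with more globin also had fewer non-globin UMIs in which to find the gene.

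**Figure D3:**
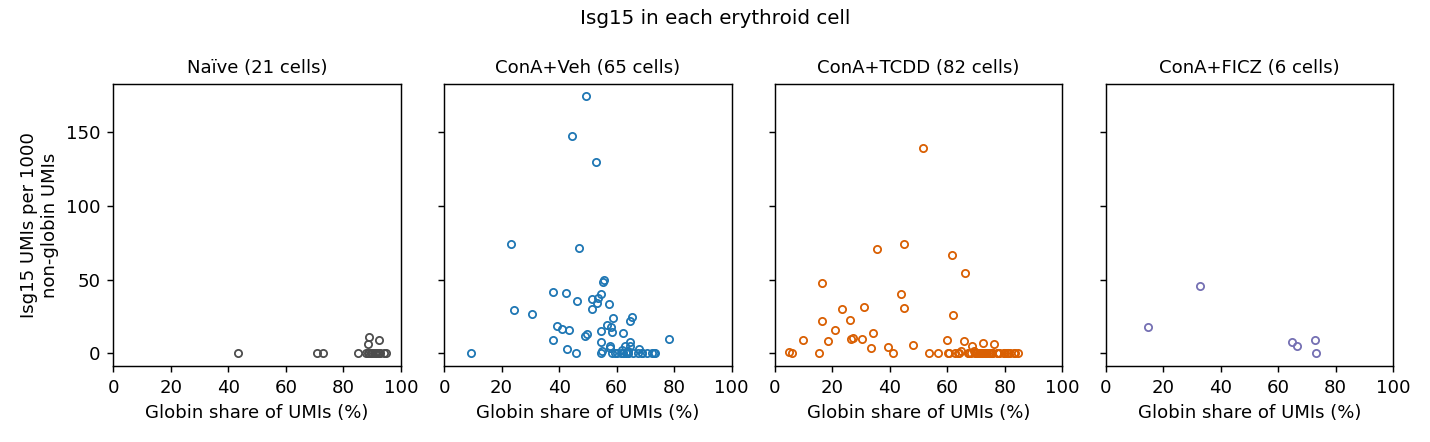
Each circle is 1 erythroid cell, with its globin share of UMIs (%) on the x axis and Isg15 UMIs per 1000 non-globin UMIs on a linear y axis, in 1 panel per library. Values reach 174 in ConA+Veh and 139 in ConA+TCDD, lie at or below 11.03 in Naïve, and most cells above 70% globin lie near 0.

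The promoter of Isg15, a gene at chr4:156199424-156200818 on the minus strand, was searched with those of the other list members, in RefSeq windows of GRCm38.p6 that hold the 250 bases before the start. The letters GAAANNGAAA, the core of the interferon-stimulated response element, were sought on both strands. They were in 8 of the 15 interferon list promoters that the table holds (53.3%: Bst2, Gbp2, Ifit1, Ifit3, Igtp, Irgm1, Isg15 and Stat2) and in 2.98% of all 32851 promoters. For Isg15 there were 3 overlapping matches, of which the middle one, 72 bases upstream of the start, is shown in capitals because this gene carried the difference.
Isg15, chr4:156200871-156200900, minus strand: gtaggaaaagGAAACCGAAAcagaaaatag
The letters AGATAA, of the kind that GATA1 binds, were in 3 of 9 promoters of the erythroid genes (33.3%: Alas2, Epb42 and Trim10) and in 9.99% of all promoters. The letters CCACACCC, of the kind that KLF1 binds, were in 0 of the same 9 promoters and in 3.20% of all promoters. Of the 4 adult globins they were in the promoter of Hbb-bs, 93 bases upstream of its RefSeq start at 103827928. That start lies inside the longer GENCODE gene given above. Motifs are in capitals, and that of Alas2 lies on the opposite strand.
Alas2, chrX:150547321-150547350, plus strand: actttgctttTTATCTttagcagaggcctg
Hbb-bs, chr7:103828002-103828031, minus strand: ttccgtagagCCACACCCtggtaagggcca
Hbb-bs, chr7:103828119-103828148, minus strand: ttctctgcacAGATAAggacaaacattatt
A match describes the letters in the window and is not a site shown to be bound.

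Of the remaining lists, 3 of 11 counted late maturation genes and 4 of 8 red cell metabolism genes were at least 2-fold higher in ConA+Veh than in Naïve, with none lower, where 25.4% of all counted genes were higher, and their medians were 0.53 and 1.14. Ubb, a polyubiquitin gene, was at 12506 CPM in Naïve and 34292 in ConA+Veh (log2 ratio 1.46, 1.14 to 1.79). Gpx1 had a log2 ratio of 1.35 (1.11 to 1.60), and Alas2 one of -0.06 (-0.26 to 0.15). These gene ratios include the T cell-bearing Naïve cell. Without it the Naïve red cell metabolism list, which Gpx1 led, kept 280 of 304 UMIs, while the non-globin total fell from 6717 to 4146. Gpx1 was then less than 2-fold higher in ConA+Veh. The list sums also depended on this 1 Naïve cell. With all cells the list ratios were 0.66 for late maturation and 1.04 for red cell metabolism. Without the T cell-bearing Naïve cell alone they were 0.09 and 0.46. They were 0.73 and 1.12 without the neutrophil-bearing ConA+Veh cell alone, and 0.17 and 0.54 without both, where heme synthesis went from 0.00 to -0.55. The largest differences upward also held S100a8 (258 against 1 UMI) and S100a9 (381 against 0), which were at 1 UMI each in ConA+Veh without the neutrophil-bearing cell. The largest differences downward were those of mt-Co2 (log2 ratio -2.12), Gm42418 (-2.09), mt-Co3 (-1.85), Dcaf12 (-1.58) and Malat1 (-1.46). Malat1, a nuclear RNA, had 1 UMI in the Naïve erythroid cells once the T cell-bearing cell was left out, and its ratio was then 4.08.

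ConA+TCDD against ConA+Veh showed higher membrane and cycle genes and lower late maturation genes. Of 287 genes counted, 53 were at least 2-fold higher in ConA+TCDD (18.5%) and 25 at least 2-fold lower (8.71%), with a median log2 ratio of 0.14. In the membrane list 4 of 6 counted genes were higher and none lower (median 1.38), namely Slc4a1 (1.20), Cd47 (1.56), Tmcc2 (1.63) and Rhd (2.67). In the late maturation list 3 of 12 were lower and none higher (median -0.83), among them Mkrn1 (-1.39) and Ube2l6 (-1.17). Mkrn1, a ubiquitin ligase, had 760 UMIs in ConA+Veh and 456 in ConA+TCDD, which is 19864 and 7564 CPM. Ube2l6, the enzyme that hands Isg15 to its targets, was at 16440 and 7299 CPM.

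In ConA+TCDD most UMIs of the G2 and M list came from few cells. Mki67, a marker of dividing cells, had 0, 8, 77 and 1 UMIs, Birc5 0, 2, 48 and 0, and Top2a 0, 7, 19 and 0. Ube2c, a mitotic enzyme that late erythroid cells also hold, had 9, 105, 146 and 1. In ConA+TCDD 16 of 82 cells held at least 5 UMIs of the G2 and M list and gave 336 of its 392 UMIs, and in ConA+Veh 8 of 65 cells gave 63 of 134. Those cells had a median of 28.8% and 43.1% globin, below the medians of their libraries. The list stood at 3502 CPM (2934 to 4148) in ConA+Veh. In ConA+TCDD it stood at 6503 (5875 to 7179), where the other cells of those libraries had 1384 and 1134. S phase genes were at 784 and 2223 CPM. Hmgb2, a chromatin protein of dividing cells, had 13 and 142 UMIs (log2 ratio 2.79, 1.97 to 3.74).

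Fech and most counted interferon genes were lower in ConA+TCDD. Fech had a log2 ratio of -1.12 (-1.47 to -0.76) and Alas2 stood at -0.60 (-0.71 to -0.49). Of the 3 counted interferon genes Isg15 (-1.16, -1.29 to -1.03) and Irf7 (-1.64, -2.18 to -1.11) were lower and Ifit1 was higher (1.05, 0.29 to 1.87). The list ratio was -0.87. Isg15 held 1144 of the list's 1340 UMIs in ConA+Veh and 808 of 1155 in ConA+TCDD, so this ratio mostly follows that gene. The antioxidant Prdx2 had 249 and 596 UMIs (0.60, 0.39 to 0.82), and carbonic anhydrase Car2 had 125 and 351 (0.83, 0.54 to 1.14). Among stress genes Ppp1r15a, which restarts translation after stress, had 30 and 175 UMIs (1.89, 1.32 to 2.50). The largest differences upward were those of Hist1h2ap (72 against 0 UMIs, at least 3.93), Birc5 (3.93), Mt1 (61 against 0, at least 3.69), Dek (80 against 4, 3.67) and Tubb4b (56 against 5, 2.83), genes of histones, chromatin, mitosis, metal binding and microtubules. The largest downward were S100a9, S100a8 and Retnlg, which the neutrophil-bearing ConA+Veh cell carried, then Irf7 and Tmsb4x (63 against 109 UMIs, -1.45).

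At matched globin share most of these differences were smaller in globin-rich cells. Among the 51 ConA+TCDD and 47 ConA+Veh cells with 50 to 80% globin, 6 of 127 counted genes were at least 2-fold higher in ConA+TCDD and 5 lower. In the cells with 20 to 50% globin 20 of 110 were higher and 24 lower, so the balance of higher to lower genes over all cells was not kept there. At 50 to 80% the G2 and M list had a log2 ratio of -0.19 (-0.68 to 0.31) and the membrane list 0.23 (-0.07 to 0.53), intervals that span 0. In the 16 and 17 cells of the lower range those ratios were 1.76 (1.33 to 2.22) and 1.18 (0.95 to 1.40). The neutrophil-bearing cell is among these 17.

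Some genes kept their direction in both ranges. Isg15 was at -1.25 (-1.41 to -1.08) in cells with 20 to 50% globin and -0.68 (-0.93 to -0.43) in those with 50 to 80%. The interferon list was at -0.93 and -0.60, but Isg15 held most of its UMIs. In the lower range these were 759 of 897 in ConA+Veh and 465 of 684 in ConA+TCDD. In the higher range they were 385 of 434 and 213 of 254, so the list is not a result apart from Isg15. Mkrn1 was at -0.52 (-0.82 to -0.23) and -1.25 (-1.49 to -1.02). Prdx2 was at 0.79 (0.45 to 1.13) and 0.88 (0.57 to 1.18). Alas2 was at -1.26 (-1.52 to -1.01) and 0.20 (0.07 to 0.33), opposite signs in the 2 ranges. The late maturation list was lower in both, at -0.85 and -0.25.

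**Figure D4:**
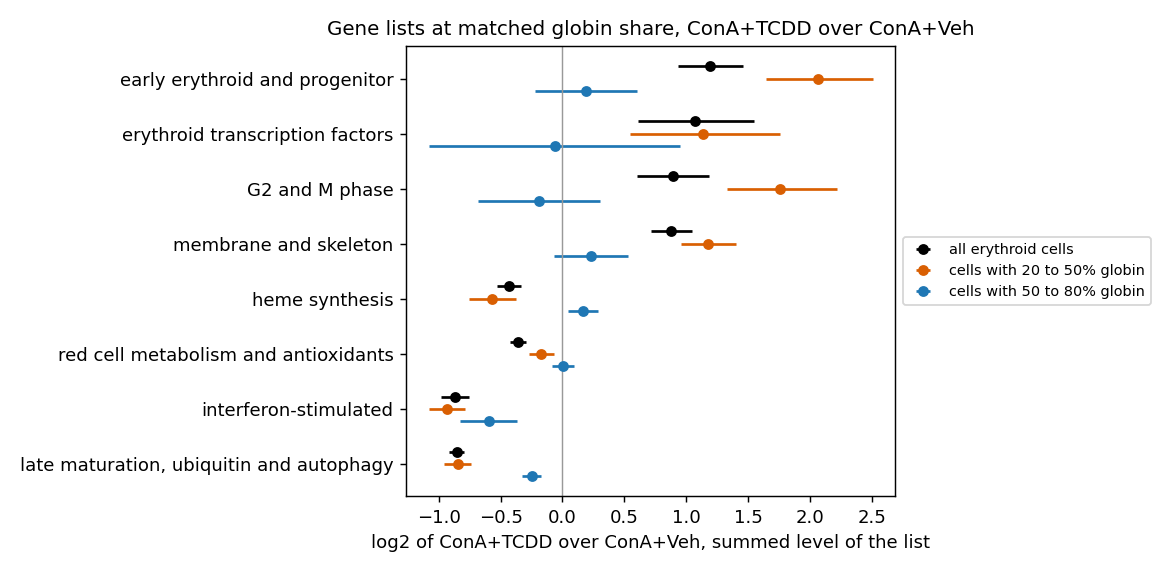
The x axis gives the log2 ratio of ConA+TCDD over ConA+Veh for the summed level of each list, with exact 95% intervals as bars, over all erythroid cells and within 2 ranges of globin share. In cells with 50 to 80% globin the G2 and M list (-0.19) and membrane list (0.23) have intervals that span 0. There the interferon list (-0.60), most of whose UMIs were of Isg15, and the late maturation list (-0.25) lie below 0.

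ConA+FICZ held 6 erythroid cells with 2837 non-globin UMIs, so few genes could be weighed, and its comparison uses the same ConA+Veh library. Of these UMIs 1 cell gave 37.3% and 2 cells together 65.2%. Without the cell of each library with the most non-globin UMIs, 9 genes were higher and 31 lower, and the membrane list ratio was 1.60. In ConA+Veh the cell left out was the neutrophil-bearing one. Of 134 genes counted, 11 were at least 2-fold higher (8.21%) and 43 at least 2-fold lower (32.1%), with a median log2 ratio of -0.43, or 15 and 24 when scaled to the median gene ratio. Membrane genes were higher in 3 of 4 counted, with none lower, among them Slc4a1 (16 against 51, 2.08, 1.17 to 2.91) and Tmcc2 (24 against 32, 3.34, 2.51 to 4.15). Of the late maturation genes 4 of 11 were lower and none higher (median -0.77), near the 32.1% of all counted genes that were lower, for example Mkrn1 (22 against 760 UMIs, -1.36, -2.04 to -0.75). The interferon list was at 33134 CPM (26775 to 40547) against 35024, a log2 ratio of -0.08 that was 0.02 with all UMIs as the base and 0.28 relative to the median gene, and Isg15 had one of -0.48 (-0.87 to -0.10). The largest differences upward after Tmcc2 and Slc4a1 were mt-Co3 (2.05), mt-Co1 (2.01) and Malat1 (1.74), and the largest downward, apart from S100a9 and S100a8, were Ube2c (1 against 105 UMIs, -2.96), Rps2 (1 against 100, -2.89) and Hsp90ab1 (1 against 88, -2.71). Mitochondrial genes took 4.23% of non-globin UMIs in these 6 cells, against 0.878% in ConA+Veh, 2.04% in ConA+TCDD and 2.68% in Naïve.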

How the data were processed

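Per the labels, liver mononuclear cells were processed with the 10x Genomics 5′ kit. The deposited values are raw UMI counts per gene and cell, made by the authors with Cell Ranger 3.0.2 on mm10, with no normalization. The tools used here were numpy 2.4.6, scipy 1.17.1 and pandas 2.3.3 under Python 3.11.15, with figures from matplotlib 3.10.9. Symbols were taken from the files (31053 features). The symbols Ahsp, Lnk and Tent5c were not analysed here. A few genes of these lists are not reported here. UMIs of the chosen cells were summed per library and divided by non-globin UMIs. Ratios have intervals from the exact binomial distribution, sums exact Poisson and shares Clopper-Pearson intervals. For a gene with no UMI the floor was 3 UMIs over the group. Genes named are the globins, the heme, erythroid, transcription factor and AhR lists, the 4 most abundant genes of each other list, and the 5 largest differences each way per comparison, other genes being chosen after their values were seen. The members and lists were chosen with earlier results of these data known. Gene positions are from GENCODE M21 (GRCm38), coding sequences from its transcripts (longest reading frame), and promoters from RefSeq GRCm38.p6. No doublet caller was run. Between pairs of libraries 4 to 15 cell barcodes were shared, and 1 of them belonged to an erythroid cell. The steps were tested on simulated data.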

Additional observations from a re-analysis of the deposited data

Results flagged for a closer look

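Cells with at least 3 of the 13 erythroid genes but under 5% globin lay outside the chosen cells. They numbered 0 in Naïve, which allows a share of up to 0.144%, 3 in ConA+Veh (0.108% of cells), 8 in ConA+TCDD (0.426%) and 4 in ConA+FICZ (0.157%). All 4 of the ConA+FICZ cells held Gata1, Klf1, Mki67 and Car1, of which Car1 was in no chosen cell, and 3 of the 4 had no globin UMI. They were large, with 18782 to 44992 UMIs, and Alas2 was at 0 in each. In ConA+TCDD 5 of the 8 had no globin UMI, and in ConA+Veh 2 of the 3.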

How the results depend on the processing

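No paired analysis was possible because each group had 1 library. Of 198 alternative values of 22 results, 126 stayed within the counting interval (or, for counts, within 1.5 times), 69 lay outside it and 3 changed sign. For 59 values of single genes the 544 alternatives gave 407, 131 and 6. The cause was not tested. The splits by 50 to 80% and 20 to 50% globin, the removal of cells with 10 or more leukocyte UMIs, together or 1 library at a time, the alpha range without the highest ConA+Veh cell, and the alpha share in other cells with 1 or 2 globin UMIs were added after seeing the data.

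The share in ConA+Veh over Naïve had a log2 ratio of 1.22. It was 5.20 among cells with at least 200 genes and at most 10% mitochondrial UMIs. There the T cell-bearing cell was the only Naïve erythroid cell left. Among erythroid cells with at least 3 erythroid genes the ratio was 2.49. ConA+TCDD over ConA+Veh went from 0.90 to 0.18 with the first of these filters. Erythroid cells with at least 3 of the 13 genes after thinning (4.76, 23.1, 29.3 and 66.7%) were, without thinning, 46.2% of those in ConA+Veh and 48.8% for ConA+TCDD. With at least 1 gene they were 90.5, 96.9, 98.8 and 100%, and with at least 5 genes 0, 6.15 and 14.6% in the first 3 libraries.

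For ConA+Veh over Naïve, the 36 higher and 10 lower genes were 122 and 0 with all UMIs as denominator, 91 and 114 with no minimum of UMIs and 18 and 4 with at least 100 UMIs. Without cells of 10 or more leukocyte UMIs they were 53 and 9. The lower genes were 16 relative to the median gene ratio, and the higher 56 from the mean of each cell's level. With all UMIs the interferon list (3.97) stood at 5.50, late maturation (0.66) at 2.19 and red cell metabolism (1.04) at 2.57. Late maturation and red cell metabolism stood at 0.36 and 0.74 relative to the median gene ratio, 0.16 and 0.50 from the mean per cell, and 1.39 and 1.60 in cells with at least 3 erythroid genes. They stood at 0.24 and 0.63 without cells of 2 or more leukocyte UMIs, and at 0.17 and 0.54 without those of 10 or more or without the largest cell of each library. Malat1 (-1.46) turned positive in 5 settings, at 0.0703 with all UMIs, 0.28 from the mean per cell, 4.16 without cells of 2 or more leukocyte UMIs, and 4.08 without those of 10 or more or without the largest cell.

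For ConA+TCDD over ConA+Veh, the 53 higher and 25 lower genes were 679 and 231 with no minimum, 31 and 11 in cells with at least 20% globin, and 6 and 5 in those with 50 to 80%. They were 17 and 20 with at least 100 UMIs and 20 and 24 in cells with 20 to 50% globin, where lower genes outnumbered higher ones, and the lower genes were 39 in cells with at least 3 erythroid genes. The interferon list (-0.87) stood at -0.996 relative to the median gene ratio, -1.06 in cells with at least 3 erythroid genes, -0.73 with at least 20% globin and also without cells of 2 or more leukocyte UMIs, -0.69 without the largest cell and -0.60 with 50 to 80% globin. Late maturation (-0.85) stood at -0.98, -1.13 and -0.54 in the first 3 of these and at -0.25 in the last, at -0.79 without mitochondrial and ribosomal genes, -0.42 from the mean per cell and -0.93 without cells of 10 or more leukocyte UMIs. G2 and M (0.89) stood at 0.30 and membrane (0.88) at 0.57 from the mean per cell, at 1.76 and 1.18 with 20 to 50% globin, and at -0.19 and 0.23 with 50 to 80%, where Dek (3.67) was at -0.24.

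For ConA+FICZ over ConA+Veh, the 11 higher and 43 lower genes were 5 and 16 with at least 100 UMIs. With no minimum they were 207 and 58, which turns the balance, and the lower were 24 relative to the median gene ratio, 20 in cells with at least 3 erythroid genes and 28 with at least 20% globin. The interferon list (-0.08) stood at 0.0242 with all UMIs and 0.28 relative to the median gene ratio, where the membrane list (1.57) stood at 1.93. Depth limits this comparison, since 6 cells gave 2837 non-globin UMIs.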
